A study of Mus musculus with 89 samples.

Results

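The effect of ovalbumin (OVA) challenge was measured in mouse lungs that had received CuO NH3 at 40 μg per day. The comparison took 3 OVA-challenged samples against 3 PBS-challenged samples, picked by their labels for nanomaterial, dose and challenge alone, out of 89 samples in the series. CuO NH3 is a copper oxide nanomaterial with a methylaminated surface. The mice were female BALB/c, 6 to 8 weeks old, and all of them had been sensitised with OVA and the adjuvant Alum, those challenged with PBS included. Particles were aspirated into the airways from the throat on 4 consecutive days together with OVA or with PBS alone, and lung tissue was taken 24 h after the last dose. The sample descriptions and the methods give the dose in μg, whereas the treatment text of the labels writes mg. Each sample was an independent pool of 2 RNA samples. The same OVA-against-PBS contrast was taken in controls without nanomaterial (8 and 7 samples), in CuO NH3 at 2.5 μg per day (3 and 3) and at 10 μg per day (3 and 4), and in CuO PEG, the PEG-coated form, at 40 μg per day (3 and 3). The question was which genes OVA moved in lungs that received the highest dose of CuO NH3 over the same days.

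In a sensitised animal, OVA recalls a type 2 response. Th2 cells release Il4, Il5 and Il13, of which Il4 and Il13 signal through STAT6 to airway epithelium and macrophages. Epithelium then turns out mucus and Clca1, macrophages make arginase and chitinase-like proteins, and the eotaxins Ccl11 and Ccl24 draw eosinophils out of the blood through their receptor Ccr3. Copper oxide particles are better known for a response of neutrophils, monocyte chemokines and metallothioneins.

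RNA was hybridised to Agilent 2-colour arrays, and levels are given as log2 intensity after removal of dye, slide and array position. A gene was called when its limma p-value, adjusted over all genes by Benjamini-Hochberg, was under 0.05 and its linear fold over 1.5. In the 6 samples, 50.6% to 61.0% of spots were well above background, no spot was saturated, and any 2 samples correlated at 0.991 to 0.996. No 2 of them shared an array, and replicate 1, replicate 2 and replicate 3 of both groups lay on slides 4, 5 and 6. Lung markers were in place. Sftpc of alveolar type 2 cells, Ager of type 1 cells, Scgb1a1 of club cells, Foxj1 of ciliated cells and Cdh5 of endothelium were well above background in 6 of 6 samples. In whole lung, fewer cells of a type and less RNA per cell cannot be told apart. The labels name independent pools but not their animals, so the p-values measure the spread between pools. That spread was taken within groups over all 89 samples of the series, not over these 6 alone.

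OVA changed 265 of 22911 genes in CuO NH3 40, which is 1.16% of those tested. Of these, 236 rose (1.03%) and 29 fell (0.127%). The rises ran from 0.59 to 5.51 on the log2 scale with a median of 0.80, and the falls from −0.60 to −1.09 with a median of −0.69. Of the rises, 66 exceeded 2-fold, 13 exceeded 4-fold and 4 exceeded 8-fold. The 3 OVA and the 3 PBS samples did not overlap for 264 of the 265 genes, against 22.9% of all genes. As the 265 were called on these same samples, that separation was largely set by the selection. The count depended on how the array entered the fit. With a term for every array in place of slide and position, no gene passed both thresholds, while 1509 had an unadjusted p under 0.05. The direction was kept in 265 of 265 genes there, their log2 changes were at a median of 0.864 of those above, and the median standard error over all genes was 0.181 instead of 0.119. The 6 samples by themselves, with no batch term, gave 169 calls. Leaving out each of the 6 samples in turn gave 191 to 332 calls, and 110 of the 265 genes stayed called in all 6 of these fits.

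**Figure D1:**
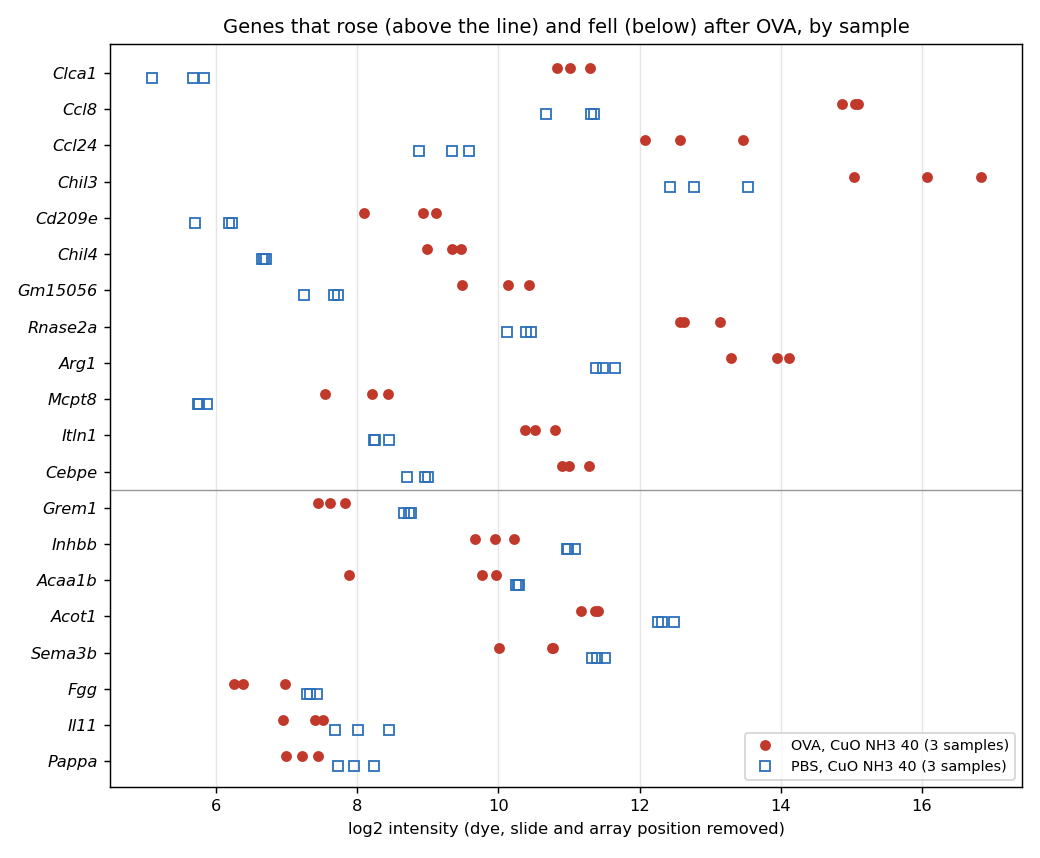
Levels of the 12 genes with the largest rises and the 8 with the largest falls after OVA in CuO NH3 40, as log2 intensity (x axis) in each of the 3 OVA samples (filled circles) and 3 PBS samples (open squares). No gene shown has overlapping groups, and Clca1 has the widest gap, from a highest PBS sample of 5.83 to a lowest OVA sample of 10.83.

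The promoters of 4 genes with large rises are shown because STAT6 is the factor through which Il4 acts. They were taken, in order of size, from the called rises named below that had an entry, and run from 250 bases before to 50 after the transcription start (RefSeq, GRCm38.p6). Each is written on the strand of the gene. Capitals mark TTC followed by GAA, with 4 bases between them (the spacing STAT6 prefers) or 3 (the spacing of other STAT factors). Either spacing reads the same on both strands, and the pair was searched on both.
Ccl8, chr11:82114935-82115234, plus strand: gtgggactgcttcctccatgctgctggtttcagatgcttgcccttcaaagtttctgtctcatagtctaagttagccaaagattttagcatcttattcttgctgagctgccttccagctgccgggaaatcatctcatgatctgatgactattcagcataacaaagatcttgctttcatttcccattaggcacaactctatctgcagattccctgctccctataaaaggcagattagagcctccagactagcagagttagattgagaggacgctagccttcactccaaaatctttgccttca
Chil3, chr3:106167515-106167814, minus strand: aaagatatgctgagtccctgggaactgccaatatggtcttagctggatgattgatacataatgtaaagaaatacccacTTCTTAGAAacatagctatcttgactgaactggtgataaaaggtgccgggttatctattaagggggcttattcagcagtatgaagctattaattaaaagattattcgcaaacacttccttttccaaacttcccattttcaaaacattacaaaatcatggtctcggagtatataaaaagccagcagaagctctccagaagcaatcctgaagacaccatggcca
Cd209e, chr8:3854237-3854536, minus strand: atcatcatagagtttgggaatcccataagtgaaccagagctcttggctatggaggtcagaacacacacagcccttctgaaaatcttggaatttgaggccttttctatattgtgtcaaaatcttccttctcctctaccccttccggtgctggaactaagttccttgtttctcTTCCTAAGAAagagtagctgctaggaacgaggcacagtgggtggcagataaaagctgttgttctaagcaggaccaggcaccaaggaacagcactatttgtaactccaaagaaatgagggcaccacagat
Chil4, chr3:106219430-106219729, minus strand: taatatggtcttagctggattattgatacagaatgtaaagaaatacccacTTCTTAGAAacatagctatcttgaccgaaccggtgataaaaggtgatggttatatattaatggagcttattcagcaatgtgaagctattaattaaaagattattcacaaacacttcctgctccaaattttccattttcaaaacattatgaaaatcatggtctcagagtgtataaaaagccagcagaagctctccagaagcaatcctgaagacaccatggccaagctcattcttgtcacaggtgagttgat
The STAT6 spacing was found in the Cd209e window alone, starting 79 bases before the transcription start, and the other spacing in Chil3 and Chil4, starting 172 and 200 bases before it. Across 32851 promoters of the same length, 6.95% held the first motif and 8.3% the second. The neighbouring chitinase-like genes Chil3 and Chil4 had 200 identical bases of 272 when their windows were laid side by side without gaps at a shift of 28, and the motif fell in the same place in both.

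Most genes of the eosinophil list rose in CuO NH3 40. Of 15 measured genes for eosinophils and their chemokines, 10 rose and none fell, with a list median of 1.37 against −0.01 over all genes. In controls 10 rose, with a median of 1.20, and the difference from controls was called for 1 of the 15, upward. Over all genes, 1.03% rose in CuO NH3 40 and 4.51% in controls, and 0.764% had a difference called upward. Ccl24, an eotaxin made mainly by macrophages, stood at 12.08, 13.46 and 12.57 in the OVA samples and at 9.59, 8.87 and 9.34 in the PBS samples. That is a rise of 3.44 ± 0.41 (log2, SE; limma adjusted p = 3.63e-07), 10.8-fold, with every OVA sample above every PBS sample. Ccl11, the other eotaxin, was at 9.56, 9.25 and 9.12 after OVA and at 7.44, 7.38 and 7.96 after PBS, a rise of 1.71 ± 0.31 (adjusted p = 0.000437). Rnase2a, an eosinophil-associated ribonuclease also called Ear11, was at 13.14, 12.57 and 12.63 against 10.12, 10.38 and 10.46, a rise of 2.46 ± 0.31 (adjusted p = 5.84e-07). These 3 genes did not overlap between the groups. In controls Ccl24 rose by 4.72, Ccl11 by 2.62 and Rnase2a by 2.23. The difference from controls was −1.28 for Ccl24 (95% interval −2.20 to −0.37, adjusted p = 0.0685) and −0.91 for Ccl11 (−1.60 to −0.22, adjusted p = 0.0935), and neither was called. Prg2, the major basic protein of eosinophil granules, rose by 2.13 ± 0.35, and Ear10, a relative of Rnase2a, by 1.86 ± 0.27. Ear1 (0.70 ± 0.28) and Ear2 (0.79 ± 0.29) were not called. The Ear ribonucleases are close copies of each other on chromosome 14, so the share of each in its probe's signal is uncertain. Epx, the eosinophil peroxidase, was not well above background in any PBS sample and was at least 2.88-fold higher after OVA (adjusted p = 0.000633). With array terms, Ccl24 was at 3.20, Rnase2a at 2.10, Ear10 at 1.60, Ccl11 at 1.55, Prg2 at 1.14 and Epx at 1.07, with limma adjusted p from 0.108 to 0.380. Ccr3, their receptor on eosinophils, rose by 0.96 ± 0.27, and leaving out any sample but PBS replicate 3 ended that call.

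The level without OVA differed between exposures for several of these genes. In CuO NH3 40 without OVA, the log2 difference from PBS controls was −2.14 for Rnase2a, −2.49 for Ear10 and 1.32 for Ccl24 (limma adjusted p = 5.9e-10, 4.87e-14 and 0.00122). In lung tissue RNA, Rnase2a averaged 12.46 in PBS controls and 12.78 after OVA in CuO NH3 40. The paper counted eosinophils in lavage fluid, which is another measure, and detected them only in OVA-challenged groups. There it reported more of them with CuO NH3. The lungs were lavaged before the tissue was taken. Which cells gave the signal of these genes was not tested. Siglecf, a lectin on eosinophils and alveolar macrophages that was singled out after its values were seen, was at 8.82, 8.85 and 9.09 after OVA and at 8.21, 8.11 and 7.86 after PBS in CuO NH3 40. In controls its medians were 9.16 after OVA (lowest 9.07, highest 9.40) and 9.15 after PBS (8.85 to 9.33). The PBS samples of CuO NH3 40 thus lay below all other samples of the 4 groups. The OVA effect on Siglecf was 0.86 ± 0.17 in CuO NH3 40, 0.08 in controls, and the difference of 0.78 was called (adjusted p = 0.00508). Siglecf also rose in CuO NH3 10 (0.71) and CuO PEG 40 (0.85), both called, and changed by 0.54 in CuO NH3 2.5. Its effect in CuO NH3 40 was not called different from that in CuO NH3 10 or CuO PEG 40.

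Goblet cell genes responded in part. Of 17 measured, 3 rose in CuO NH3 40 and 14 rose in controls (4.51% of all genes rose there), with list medians of 0.52 and 2.30. Clca1, a secreted protein of goblet cells, was at 10.83, 11.29 and 11.02 after OVA against 5.09, 5.68 and 5.83 after PBS. The rise was 5.51 ± 1.05 (limma adjusted p = 0.000889), and 1 of the 3 PBS samples was well above background. With array terms it was 3.20 ± 1.68. Itln1, intelectin, stood at 10.52, 10.80 and 10.38 against 8.26, 8.23 and 8.45, a rise of 2.25 ± 0.40 (adjusted p = 0.000416). Both genes separated the groups without overlap. Tff2, a trefoil peptide of mucus, rose by 1.91 ± 0.53 (adjusted p = 0.036), but leaving out OVA replicate 2, OVA replicate 3, PBS replicate 1 or PBS replicate 3 ended that call. The mucins themselves were not called. Muc5ac, the inducible airway mucin, read 7.36, 7.35 and 7.81 after OVA and 6.55, 6.32 and 6.47 after PBS, a change of 1.06 ± 0.51 (adjusted p = 0.346) that was 0.07 with array terms. Muc5b, the mucin of the resting airway, changed by 0.85 ± 0.42 (adjusted p = 0.357).

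Genes of alternatively activated macrophages were called in larger number. Of 16 measured, 8 rose in CuO NH3 40 and 14 in controls, with medians of 0.92 and 2.00. Over all genes, 1.03% and 4.51% rose. Chil3, also called Ym1, reached 16.83, 16.07 and 15.04 after OVA against 12.77, 12.43 and 13.53 after PBS, a rise of 3.07 ± 0.50 (limma adjusted p = 8.89e-05). Chil4, whose promoter is shown above beside that of Chil3, was at 9.48, 9.35 and 8.99 against 6.65, 6.71 and 6.68, a rise of 2.59 ± 0.39 (adjusted p = 3e-05). Cd163, a scavenger receptor for haemoglobin, rose by 1.96 ± 0.29. Mrc1, the mannose receptor, rose by 1.73 ± 0.21, from 10.72, 10.47 and 10.55 to 12.23, 12.43 and 12.27. These 4 kept the call when any 1 of the 6 samples was left out. Arg1, arginase, read 13.29, 14.11 and 13.95 against 11.66, 11.38 and 11.48, a rise of 2.28 ± 0.54 (adjusted p = 0.00966) that lost the call without OVA replicate 2 or OVA replicate 3 and was 1.25 with array terms. Retnla, also called Fizz1, did not separate the groups at 17.19, 17.41 and 16.30 against 16.78, 15.64 and 17.35, a change of 0.38 ± 0.49 (adjusted p = 0.840). Cd209e, a C-type lectin outside this list, rose by 2.67 ± 0.41, from 6.19, 5.70 and 6.23 to 9.12, 8.93 and 8.10. Among alveolar macrophage genes, 2 of 15 rose. Trem2, a lipid receptor, rose by 0.98 ± 0.24 and Abcg1, a cholesterol exporter, by 0.61 ± 0.16, and both lost the call without OVA replicate 1 or PBS replicate 3, and Abcg1 also without PBS replicate 1.

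Few chemokine genes were called. Ccl8, a ligand of Ccr8 in mice, was at 14.86, 15.10 and 15.05 after OVA against 11.31, 10.68 and 11.36 after PBS, a rise of 3.89 ± 0.59 (limma adjusted p = 2.61e-05), which with array terms was 2.73. It was the only rise among 13 genes for Ccr4, Ccr8 and lymphoid chemokines, of which 6 rose in controls (4.51% of all genes). Ccl17, a ligand of Ccr4, changed by 0.59 ± 0.27 (adjusted p = 0.303). Ccl9, a chemokine of monocytes, rose by 1.40 ± 0.26 (adjusted p = 0.000557) and separated the groups, at 13.38, 13.80 and 13.43 against 12.22, 12.02 and 12.17. Ccr2, the monocyte receptor, rose by 0.68 ± 0.19, a call that ended when any of the OVA samples, PBS replicate 2 or PBS replicate 3 was left out. The monocyte chemokine Ccl2 read 13.36, 15.16 and 14.22 against 13.12, 13.32 and 13.36, and Ccl7 read 11.52, 13.60 and 12.66 against 11.10, 10.73 and 11.26. Neither was called (0.98 ± 0.49, adjusted p = 0.366, and 1.57 ± 0.52, adjusted p = 0.102), although their OVA samples lay above their PBS samples, OVA replicate 1 by the least.

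Few cytokine genes were called. Of 17 Th2 and allergic airway genes, 6 were not well above background in any of the 6 samples, and 1 rose. That gene was Il4, at 7.41, 7.66 and 7.58 after OVA against 6.21, 6.00 and 6.62 after PBS, a rise of 1.27 ± 0.27 (limma adjusted p = 0.00273) beside 1.32 in controls. Il13 was not well above background in any sample, so its level had no measurable change here. Il33, an alarmin of the epithelium, read 10.24, 10.41 and 10.23 against 10.52, 10.16 and 10.47, a change of −0.09 ± 0.21. Tnf changed by 0.65 ± 0.22 (adjusted p = 0.108), with its OVA samples at 7.27, 8.14 and 7.78 above its PBS samples at 7.12, 6.90 and 7.21. Among 15 pro-inflammatory cytokines, Il1rn, the Il1 receptor antagonist, rose by 0.85 ± 0.24 and Il11 fell. Il1rn lost the call without OVA replicate 2, OVA replicate 3, PBS replicate 1 or PBS replicate 2.

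Smaller sets of leukocyte genes rose as well. Mcpt8, a protease that marks basophils, was at 7.55, 8.21 and 8.43 after OVA against 5.74, 5.76 and 5.87 after PBS, a rise of 2.27 ± 0.42 (limma adjusted p = 0.000534), with 1 PBS sample well above background. Fcer1a, the alpha chain of the IgE receptor of basophils and mast cells, was not well above background in any PBS sample and was at least 1.32-fold higher, a call lost with loess and when dim probes were left out. These were the 2 rises among 13 mast cell and basophil genes. Cebpe, a transcription factor of granule-bearing granulocytes, rose by 2.18 ± 0.33, from 8.997, 8.710 and 8.957 to 10.905, 11.003 and 11.290. Of 17 T cell genes, Il2ra (1.06 ± 0.22) and Tnfrsf4 (0.79 ± 0.21), both carried by activated and regulatory T cells, rose, and 9 rose in controls. Over all genes, 1.03% rose in CuO NH3 40 and 4.51% in controls. Tnfrsf4 lost the call without OVA replicate 2, OVA replicate 3, PBS replicate 2 or PBS replicate 3. Of 16 dendritic cell and MHC class II genes, Cd209a (0.79 ± 0.16), Flt3 (0.71 ± 0.15) and Itgax (0.70 ± 0.16) rose, against 12 in controls. All 3 lost the call in both fits of the 6 samples alone. Itgax also lost it without PBS replicate 1 and with loess, and Flt3 with dye and slide, with array as a random block, with the replicate block and with loess. None of 16 B cell and plasma cell genes was called. Pf4, a chemokine of platelets and macrophages, rose by 0.89 ± 0.20 as the only 1 of 10 erythrocyte and platelet genes, and lost the call without PBS replicate 3.

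Falls were few and small. Grem1, a secreted antagonist of bone morphogenetic proteins, read 7.45, 7.62 and 7.83 after OVA against 8.66, 8.76 and 8.74 after PBS, a fall of −1.09 ± 0.25 (limma adjusted p = 0.00747). Inhbb, which encodes a subunit of activin B and inhibin B, read 9.95, 9.67 and 10.22 against 11.08, 10.98 and 10.99, a fall of −1.07 ± 0.22 (adjusted p = 0.00185). Acot1, an acyl-CoA thioesterase of lipid metabolism, read 11.42, 11.17 and 11.36 against 12.32, 12.27 and 12.48, a fall of −1.04 ± 0.21 (adjusted p = 0.00165). These 3 stayed called without any 1 of the 6 samples. Acaa1b, a peroxisomal thiolase, fell by 1.07 on the log2 scale, with OVA replicate 2 at 7.88 far under the others at 9.96 and 9.77, and lost the call without it, without PBS replicate 2 or without PBS replicate 3. The semaphorin Sema3b (−0.90), the fibrinogen chain Fgg (−0.81), the cytokine Il11 (−0.77) and the protease Pappa (−0.75) also fell, and each lost the call when 1 of at least 2 different samples was left out. For Pappa these were OVA replicate 2 and PBS replicate 2, and for Il11 they were OVA replicates 1 and 3 and PBS replicates 1 and 3. For Fgg every omission but that of OVA replicate 2 ended it, and for Sema3b only the omission of OVA replicate 2 or OVA replicate 3 did not.

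In several programmes known from particle inflammation, few genes or none were called for OVA. None of 15 neutrophil genes was called in CuO NH3 40, and their median was 0.05. In the PBS-challenged mice, CuO NH3 40 had raised 11 of these 15 over PBS controls (6.74% of all genes rose there, 5.3% fell). None of 20 mitotic genes was called (median 0.08). In controls 20 of 20 had risen (median 1.65), against 4.51% of all genes. Without OVA, 20 of 20 were higher in CuO NH3 40 than in controls (median 2.55). Aurkb, a mitotic kinase, read 7.87, 7.93 and 8.40 after OVA against 7.78, 8.05 and 7.76 after PBS, so that the groups overlapped. Of 17 acute phase genes none rose and 1 fell, and of 20 matrix and wound genes 2 rose, the metalloproteinases Mmp12 (1.34 ± 0.36) and Mmp13 (at least 1.55-fold, with no PBS sample well above background). Mmp12 lost the call without OVA replicate 1 or any PBS sample, and Mmp13 without any sample but PBS replicate 3. No gene was called among 17 for copper and metal handling, 17 Nrf2 targets, 12 heat shock genes, 15 complement genes, 15 secreted epithelial defence genes, 15 interferon response genes, 10 Cxcr2 ligands and neutrophil growth factors, 12 clock genes or 12 cholesterol genes. The interferon list had 15 of 15 values above 0 and a median of 0.49. Structural lists were also without a call. Alveolar type 1 genes had a median of −0.40 with 0 of 9 above 0, type 2 genes −0.24 with 0 of 14, endothelial genes −0.29 with 1 of 14, ciliated genes 0.23 with 11 of 12, smooth muscle and fibroblast genes −0.16 with 2 of 13 and club cell genes 0.04 with 5 of 10.

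Most of what OVA changed in CuO NH3 40 was also changed by OVA in controls. Of the 265 genes, 199 were called in controls, 199 of them in the same direction. This is 75.1% of the CuO NH3 40 list but 13.5% of the 1472 genes called in controls (6.42% of those tested, from 15 samples). The rises had a median of 1.04 in controls against 0.80 in CuO NH3 40. The difference of the 2 OVA effects was tested for every gene and was called for 783 (3.42%), 175 higher (0.764%) and 608 lower (2.65%) in CuO NH3 40. With array terms 364 differences were called, 45 higher and 319 lower. Set directly against the controls of the same challenge, CuO NH3 40 differed in 2759 genes after PBS (12%) and in 1101 genes after OVA (4.81%). For 709 of the 783, the OVA effect in CuO NH3 40 was the one nearer to 0. As 604 of the 783 were themselves called in controls, this count was partly set by the selection, and no share over all genes was taken. Of the 783, 663 were also called between CuO NH3 40 and controls after PBS, against 12% of all genes. Both comparisons use the PBS samples of CuO NH3 40 and the PBS controls. This overlap was therefore partly set by the design, and the share over all genes is not a fair baseline for it.

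**Figure D2:**
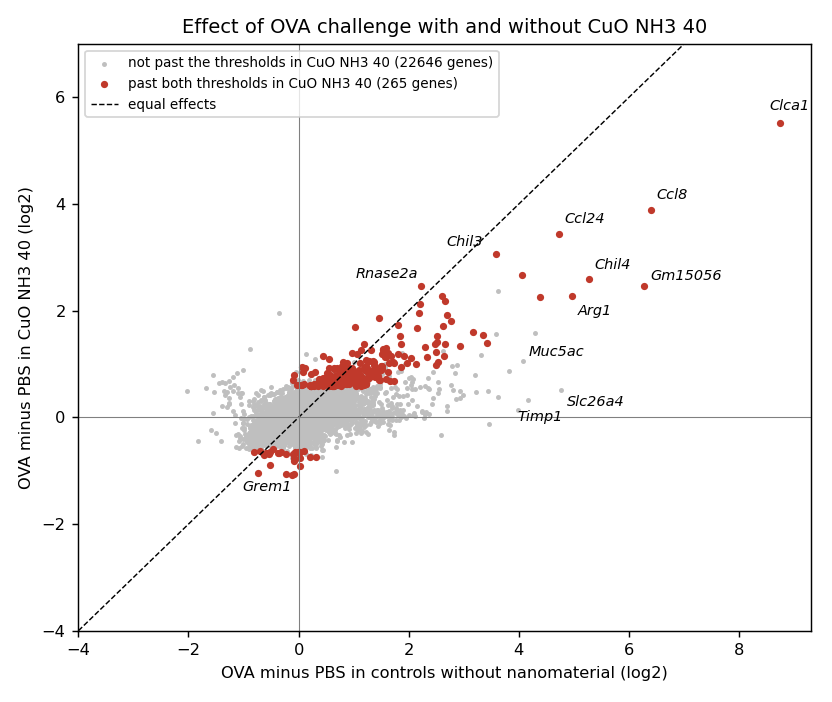
OVA minus PBS in CuO NH3 40 (y axis, log2) against OVA minus PBS in controls without nanomaterial (x axis, log2) for 22911 genes, with the 265 genes called in CuO NH3 40 in red. Chil3 and Rnase2a lie close to the dashed line of equal effects, whereas Ccl8, Chil4 and Gm15056 lie under it and Timp1 and Slc26a4 lie near 0 on the y axis.

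The genes with a smaller OVA effect showed 2 arrangements of levels. In the first, the PBS samples of CuO NH3 40 lay above every PBS control and overlapped with the OVA samples of CuO NH3 40. Timp1, an inhibitor of metalloproteinases, had medians of 9.58 in PBS controls (lowest 9.19, highest 10.75) and 13.95 in OVA controls (13.14 to 14.80). In CuO NH3 40 it read 14.10, 14.05 and 14.78 after PBS and 13.82, 15.34 and 14.76 after OVA. Its OVA effect was 4.18 in controls and 0.33 in CuO NH3 40, a difference of −3.85 ± 0.49 (limma adjusted p = 5.99e-08). Slc26a4, the anion exchanger pendrin, had medians of 8.39 (7.85 to 9.13) and 13.35 (12.35 to 14.25) in PBS and OVA controls, and read 11.88, 11.39 and 12.07 and then 12.39, 12.64 and 11.86 in CuO NH3 40. The difference was −4.25 ± 0.46, its PBS samples in CuO NH3 40 lay below every OVA control, and its OVA samples were lower than OVA controls (limma adjusted p = 0.0242). Retnla had medians of 13.14 and 16.98 in controls, and its difference was −3.24 ± 0.55. The chemokine Cxcl13, which guides B cells (−3.59), and Fxyd4, a regulator of ion transport (−3.85), had the same arrangement. Gm15056 (−3.81), a predicted gene, did not. It read 7.73, 7.25 and 7.67 after PBS and 9.49, 10.44 and 10.14 after OVA, a called rise of 2.47 ± 0.52, above every PBS control (5.24 to 7.06) and below every OVA control (11.76 to 13.42).

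In the second arrangement, the PBS samples of CuO NH3 40 lay within the range of the PBS controls and the OVA-challenged lungs of CuO NH3 40 stayed below the OVA controls. Muc5ac had medians of 6.64 (6.03 to 7.11) in PBS controls and 10.69 (10.12 to 11.14) in OVA controls, while its 3 OVA samples of CuO NH3 40 lay between 7.35 and 7.81. The difference was −3.01 ± 0.57 (limma adjusted p = 0.000196), and with array terms −2.96 (adjusted p = 0.0609). Chil4 had medians of 6.90 (6.43 to 7.13) and 12.10 (11.51 to 12.87), its 3 OVA samples lay between 8.99 and 9.48, and the difference was −2.68 ± 0.44 (adjusted p = 1.44e-05). For both genes the highest OVA sample of CuO NH3 40 was below the lowest OVA control. Arg1 had neither arrangement. Its OVA samples in CuO NH3 40 lay above every OVA control (10.94 to 13.20), and its PBS samples at 11.38 to 11.66 lay above every PBS control (6.47 to 7.69), so that its difference was −2.69 ± 0.60. By list, the difference was lower for 20 of 20 mitotic, 12 of 20 matrix and 11 of 17 goblet genes. It was also lower for 8 of 15 complement, 7 of 16 alternatively activated macrophage and 7 of 17 acute phase genes. Over all genes it was lower for 2.65% and higher for 0.764%. Among 15 eosinophil genes it was lower for 0 and higher for 1, Siglecf. These differences share the PBS samples of CuO NH3 40 and the PBS controls with the levels described here.

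**Figure D3:**
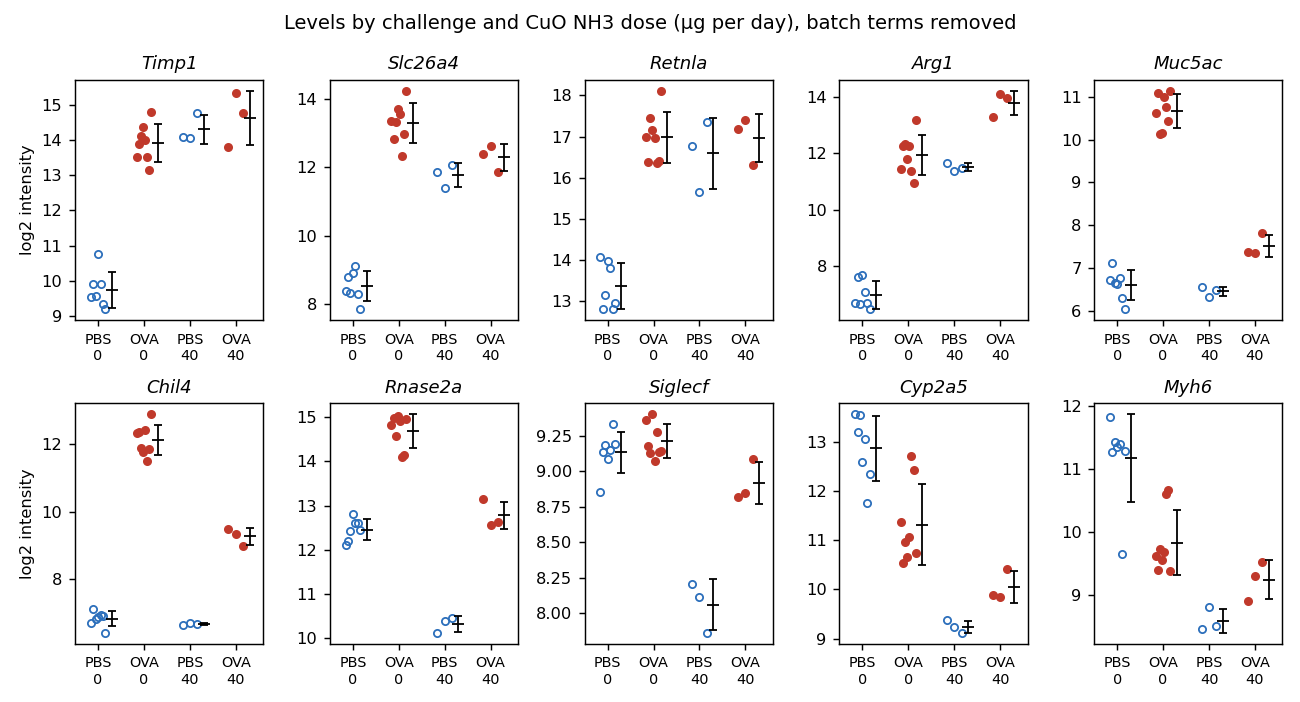
Levels of 10 genes as log2 intensity (y axis) in PBS-challenged (open circles) and OVA-challenged (filled circles) samples of controls (0 μg per day, 7 and 8 samples) and of CuO NH3 (40 μg per day, 3 and 3 samples), with bars for mean ± SD beside the points. Timp1, Slc26a4 and Retnla are high in all groups but the PBS controls, Muc5ac and Chil4 are highest in the OVA controls, and Siglecf is lowest in the PBS samples of CuO NH3 40.

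The genes with the largest differences in the other direction were lower in PBS-challenged CuO NH3 40 than in PBS controls. Cyp2a5, a cytochrome of airway epithelium, had medians of 13.06 (11.76 to 13.56) in PBS controls and 11.02 (10.54 to 12.71) in OVA controls, and read 9.37, 9.24 and 9.12 after PBS and 9.88, 9.84 and 10.41 after OVA in CuO NH3 40. Its OVA effect of 0.80 in CuO NH3 40 was not called (limma adjusted p = 0.502), but it differed from the −1.55 of controls by 2.35 ± 0.54 (adjusted p = 0.00227). The related Cyp2a4 (2.05) and the club cell secretoglobin Scgb3a2 (1.94) had differences of the same sign. The calls on both cytochromes ended with slides 4 to 6 alone, and that on Scgb3a2 there, with array terms and without OVA replicate 2. Tcap, Myh6 and Mybphl, genes of heart muscle, had differences of 2.23, 1.99 and 1.89. Heart muscle also lines the pulmonary veins of mice. Over 15 heart muscle genes listed after these values were seen, no gene was called in CuO NH3 40 and 11 fell in controls (1.91% of all genes fell there), and in PBS-challenged mice 12 were lower in CuO NH3 40 than in controls. Their mean level by sample was 8.08, 8.49 and 8.69 after OVA and 7.80, 8.05 and 7.93 after PBS, against group means of 9.73 in PBS controls and 8.73 in OVA controls. Their part in these differences was not tested. The calls on Tcap, Myh6 and Mybphl ended with array terms and with slides 4 to 6 alone. Those on the 3 genes also ended without OVA replicate 3 or PBS replicate 3, on Myh6 and Mybphl also without OVA replicate 2 or PBS replicate 1, and on Mybphl also without PBS control replicate 1, 5 or 7.

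Beside Siglecf, 5 of the called genes in CuO NH3 40 had a called difference above controls in the direction of a rise, namely Abcg1, Pgap6, Ms4a3, Naif1 and Vmn1r148. All but Abcg1 were picked out after their values were seen. Ms4a3, Naif1 and Vmn1r148 were each well above background in 1 of 3 OVA samples and in no PBS sample, and lost the call when dim probes were left out. Vmn1r148 also lost it in 5 of 6 omissions of a sample, all but that of OVA replicate 1, and Naif1 without OVA replicate 2 or PBS replicate 3. In both fits of the 6 samples alone, none of the 3 was called. Pgap6, a lipase that acts on GPI anchors, read 9.45, 9.69 and 9.65 after OVA against 8.76, 8.57 and 8.67 after PBS. Its rise was 0.93 ± 0.14 against 0.11 in controls, and the difference was 0.82 ± 0.16 (limma adjusted p = 0.000298). Pgap6 also rose in CuO NH3 2.5 (0.64) and CuO NH3 10 (0.60), both called, and changed by 0.20 in CuO PEG 40. Ms4a3, a membrane protein of granulocyte precursors, was at least 1.45-fold higher after OVA.

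The number of genes changed by OVA was 1947 in CuO NH3 2.5 (8.5%), 1092 in CuO NH3 10 (4.77%) and 265 in CuO NH3 40. Of the 265 genes, 223 were also called at 2.5 and 225 at 10 μg per day, which is 11.5% and 20.6% of the lists at those doses, with the same sign in each. Chil4 rose by 5.36, 4.99 and 2.59 along the 3 doses, Arg1 by 5.81, 4.95 and 2.28, and Muc5ac showed values of 3.84, 2.71 and 1.06. Ccl24 (4.32, 4.17, 3.44), Chil3 (3.30, 3.35, 3.07) and Rnase2a (2.84, 2.77, 2.46) lay closer together. The step from 10 to 40 μg per day was tested. It was called for 11 genes (0.048%), 6 higher and 5 lower at 40. Chil4 was lower by −2.40 with a 95% interval of −3.45 to −1.36 (limma adjusted p = 0.0476), the actin-severing protein Scin by −2.03 and the transmembrane protein Tmem213 by −1.43. Shisa2 (1.38) and the urea cycle enzyme Nags (0.83) were among those higher. For Arg1 (−2.68, limma adjusted p = 0.116) and Muc5ac (−1.65, adjusted p = 0.302) the step was not called. The count depended on single samples and on the fit. It was 0 with array terms or without OVA replicate 2 of CuO NH3 10, 52 without OVA replicate 1 of CuO NH3 10, and 2 to 24 when a CuO NH3 40 sample was left out. The Chil4 call was lost in all but 2 of these 13 omissions, those of OVA replicate 1 of either dose.

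**Figure D4:**
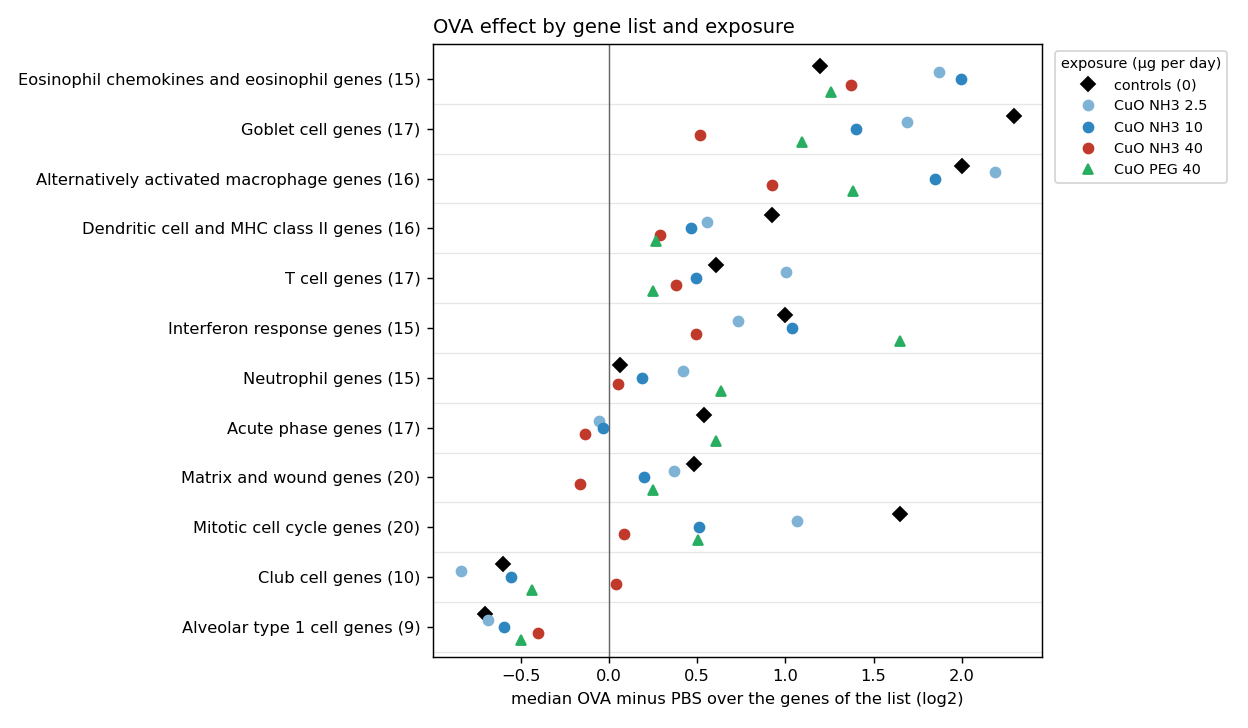
Median OVA minus PBS (x axis, log2) over the measured genes of 12 lists (number of genes in brackets) in controls, in CuO NH3 at 2.5, 10 and 40 μg per day and in CuO PEG at 40 μg per day. The eosinophil list is at 1.37 in CuO NH3 40 and 1.20 in controls, whereas the goblet list is at 0.52 against 2.30 and the mitotic list at 0.08 against 1.65.

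CuO NH3 and CuO PEG have the same copper oxide core and differ in the surface group, and both were given at 40 μg of material per day, which is not the same amount of copper. OVA changed 657 genes in CuO PEG 40 (2.87%), 178 of them shared with CuO NH3 40, all with the same sign. That is 67.2% of the CuO NH3 40 list and 27.1% of the CuO PEG 40 list. The difference between the 2 surfaces was tested once for each of 22911 genes and was called for none by limma, with 1356 genes at an unadjusted p under 0.05. The intervals were wide. For Ccl8 the difference, CuO NH3 minus CuO PEG, was 0.09 with a 95% interval of −1.57 to 1.75, for Chil3 0.06 (−1.35 to 1.47), for Ccl24 0.37 (−0.79 to 1.52) and for Rnase2a 0.18 (−0.69 to 1.05). For Gm15056 it was −2.52 (−4.004 to −1.043, adjusted p = 0.545) and for Arg1 −1.70 (−3.23 to −0.16, adjusted p = 0.806). With such intervals, a missing call does not show that the surfaces acted alike.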

How the data were processed

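Per the file headers, Agilent Feature Extraction (12.0.2.2) quantified the 2-colour arrays, with 1 sample in each channel. The deposited intensity (median foreground of a sample's own channel, not background-subtracted) was taken as log2 and quantile-normalised, following the authors' methods. The deposited log2 value table, which the authors also adjusted for labelling and array with ComBat, served as an alternative. Outlier and control spots were left out, and 32994 probes were averaged into 22911 genes through RefSeq accessions. limma (3.58.1, R 4.3.3) fitted 26 groups with dye, slide and array position over 89 samples, which differs from a term for each array by using slide and position instead. Recovery of known changes was tested on simulated data.

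Members and gene lists were chosen with earlier results of these data known. Named genes were the 12 largest called rises and 8 largest called falls without overlap and well above background in the higher group, up to 4 called genes (or the 2 largest changes) per list, the 6 highest and 6 lowest called differences from controls (3 and 3 for the other differences), and Ccl2, Ccl7, Ccl11, Ccl17, Ccl24, Tnf, Il4, Il13, Il33, Muc5ac and Muc5b. Ccr3, Epx, Ear1, Ear2, Mrc1, Siglecf, Pgap6 and Ms4a3 were added after their values were seen. A bound ("at least") set the higher group's mean against, per array, the larger of the gene's signal and the lowest signal well above background. Some genes that these rules select are not reported here. The number of arrays limits the precision.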

Additional observations from a re-analysis of the deposited data

Results flagged for a closer look

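The effect of OVA in CuO NH3 40 differed from that in controls for 50 of the named genes, Siglecf, Pgap6 and Ms4a3 included. This was by a limma test of the difference itself, with 35 lower and 15 higher in CuO NH3 40. Other genes described here that also differed, such as Naif1, Vmn1r148 and Mki67, are outside this count. Among secreted, transport and mucus genes the log2 differences were −4.25 for Slc26a4, −3.85 for Fxyd4, −3.85 for Timp1, −3.01 for Muc5ac, −2.29 for Scin, −2.12 for Itln1, −2.01 for Tmem213 and −1.59 for Muc5b. For the predicted gene Gm15056 the difference was −3.81. Among chemokines and cytokines they were −3.59 for Cxcl13, −2.75 for Cxcl5, −2.51 for Ccl8, −2.02 for Ccl7, −2.02 for Ccl9, −1.89 for Ccl2, −1.70 for Ccl17, −1.62 for Il33, −1.53 for Cxcl3 and −0.80 for Il11. With array terms, the differences of Muc5ac, Itln1, Muc5b, Ccl7, Ccl2, Cxcl3 and Il11 were no longer called. The other differences whose values are printed in this paragraph were.

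Among macrophage and leukocyte genes the differences were −3.24 for Retnla, −2.69 for Arg1, −2.68 for Chil4, −1.60 for Mmp12, −1.52 for Trem2, −1.39 for Cd209e, −1.002 for C3ar1, −0.98 for Ccr2 and −0.79 for Itgax. Others that were lower were Acaa1b at −0.98, Grem1 at −0.97, Aurkb at −0.91, Inhbb at −0.84, Sftpd at −0.83, Pappa at −0.67 and E2f1 at −0.60. Of the genes in this paragraph, only Retnla, Arg1, Chil4, Trem2 and Aurkb kept a called difference with array terms.

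Higher differences were found for the airway genes Cyp2a5 (2.35), Cyp2a4 (2.05), Scgb3a2 (1.94), Gstm1 (0.71) and Dnah5 (0.64), the heart muscle genes Tcap (2.23), Myh6 (1.99) and Mybphl (1.89) and the clock genes Dbp (1.46) and Per1 (1.00). They were also found for Shisa2 (0.89), Ms4a3 (0.88, with 1 of the 6 samples of CuO NH3 40 well above background), Pgap6 (0.82), Siglecf (0.78) and Abcg1 (0.63). With array terms, Cyp2a5 and Cyp2a4 kept the call. Scgb3a2, Gstm1, Dnah5, Tcap, Myh6, Mybphl, Dbp, Per1, Shisa2 and Abcg1 lost it. For Ms4a3, Pgap6 and Siglecf the outcome with array terms is not given here.

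Against CuO NH3 10, the OVA effect in CuO NH3 40 was lower for Chil4 (−2.40), Scin (−2.03) and Tmem213 (−1.43) and higher for Shisa2 (1.38) and Nags (0.83).

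Myh6 in PBS control replicate 6, at 9.65, lay apart from the other 6 PBS controls. Of 20 groups of levels examined in this way it was the 1 found, and chance alone marks about 1 in 20.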

How the results depend on the processing

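With a term for each array, the genes called for OVA in CuO NH3 40 fell from 265 to 0, the differences from controls from 783 to 364 and those from CuO NH3 10 from 11 to 0, with a larger standard error in the first. Slides 4 to 6 alone gave 157 calls and the 6 samples without a block 169, and the other settings gave 207 to 304. For the difference from CuO NH3 10, dye and slide gave 44, array as a random block 41, slides 4 to 6 alone 6, loess 0 and leaving out dim probes 5, and the cause was not tested. Leaving out 1 of the 6 samples gave 191 to 332 calls, 667 to 908 differences from controls, 2 to 24 from CuO NH3 10 and 0 to 2 from CuO PEG 40. Leaving out other samples, chosen after seeing the data, gave 678 to 982 (controls), 0 to 52 (CuO NH3 10) and 0 to 0 (CuO PEG 40).

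The replicate numbers were not taken as pairs, since same-numbered samples correlated at 0.353, −0.0359 and 0.15. With the replicate block, 257 genes were called, with 721, 54 and 0 differences, and with the 6 samples alone and the block 212.

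Values that changed sign belonged to genes that were not called. With array terms Bpifa1 was at −0.047, E2f1 at −0.093 and Il13 at 0.072, and with normexp Il13 was at 0.013. Leaving out 1 of the 6 samples gave −0.022 to 0.317 for Aurkb, −0.0019 to 0.292 for E2f1, −0.153 to 0.034 for Il13 and −0.504 to 0.0084 for Mmp8.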

Other observations

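Of 17 copper and metal response genes, 4 were higher and 1 lower in CuO NH3 40 than in controls after PBS (6.74% and 5.3% of all genes), with a median of 0.07. Mt1, a metallothionein, read 11.63, 11.91 and 12.07 after OVA and 11.93, 12.03 and 12.14 after PBS, where PBS controls averaged 10.05. Mt2, its neighbour, read 14.30, 14.84 and 14.82 against 14.59, 14.48 and 14.65, with a PBS control mean of 11.56. In both genes the groups of CuO NH3 40 overlapped. Saa3, an acute phase protein of macrophages and epithelium, read 14.22, 17.23 and 16.37 after OVA and 15.11, 15.47 and 16.19 after PBS, with OVA replicate 1 the lowest of the 6, and PBS controls averaged 11.15. Mki67, a marker of dividing cells, read 11.82, 11.88 and 12.08 against 11.93, 11.85 and 11.66, with a PBS control mean of 9.07. These genes were picked after their values were seen.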
